A study of Mus musculus with 9 samples.

Results

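Iron handling was followed here through 10 genes in the substantia nigra of mice given MPTP: the carrier Trf, the uptake genes Tfrc, Hfe, Slc11a2 and Steap3, the storage genes Fth1, Ftl1 and Ncoa4, and the export genes Slc40a1 and Cp. They were chosen by gene symbol for their roles, and all 10 were found among the 55335 genes of the deposited table and among the 15997 genes that averaged at least 0.5 FPKM and were tested. FPKM counts fragments per kilobase of transcript, scaled to a fixed library depth, so levels of different genes can be compared per length. The substantia nigra is the midbrain region whose dopaminergic neurons are lost in Parkinson disease, and MPTP is a toxin that damages those neurons. RNA was sequenced from 3 groups with 3 libraries each. MPTP + PE mice were injected intraperitoneally with MPTP-HCl, 20 mg/kg per dose and 2 doses a week over 5 weeks, and ran voluntarily on wheels for 2 months from the first injection onward. MPTP mice received the same injections without the wheel. Vehicle mice received saline on the same injection schedule. No group ran without MPTP, so running was compared only among mice that had all received the toxin. The labels used here state no strain, sex or age. The design text speaks of 3 mice per group but does not tie each library to 1 mouse, so p describes only library-to-library spread, which may be technical.

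Iron travels in blood and brain fluid on transferrin, enters cells with the transferrin receptor, is reduced and pumped out of the endosome, and is then used, stored in ferritin or exported through ferroportin. Dopaminergic neurons are rich in iron, in part because tyrosine hydroxylase needs it, and oligodendrocytes are among the most iron-rich brain cells and a main source of transferrin messenger RNA. Cells adjust this system mainly after transcription. Iron regulatory proteins bind a hairpin, the iron-responsive element, and block translation when it lies in the 5′ untranslated region (UTR) but protect the messenger RNA from decay when it lies in the 3′ UTR. RNA-seq can therefore follow the second kind of control and not the first.

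The hairpins are shown because they divide the members into those whose messenger RNA level can carry iron regulation and those whose translation carries it. They were searched on the transcript strand of GENCODE M21 UTRs as the letters CNNNNNCAGTGN followed by 5 bases, with at least 4 of 5 pairs (G with T allowed) between the 5 bases on either side of the loop. Each line runs 5′ to 3′ over 25 bases, and the capitals mark the 6 bases of the loop.
Fth1, 5′ UTR: cctgcttcaaCAGTGCttgaacgga
Ftl1, 5′ UTR: cttgcttcaaCAGTGTttgaacgga
Slc40a1, 5′ UTR: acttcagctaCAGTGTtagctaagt
Tfrc, 3′ UTR, site 1: ttatcggaagCAGTGCcttccataa
Tfrc, 3′ UTR, site 2: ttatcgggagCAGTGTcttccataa
Tfrc, 3′ UTR, site 3: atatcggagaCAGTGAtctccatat
Tfrc, 3′ UTR, site 4: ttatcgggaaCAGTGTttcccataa
Slc11a2, 3′ UTR of transcript Slc11a2-205: ccatcagagcCAGTGTgtttctatg

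On GRCm38 the Fth1 hairpin lies at chr19:9982734-9982758 on the plus strand, the Ftl1 hairpin at chr7:45459781-45459805 on the minus strand and the Slc40a1 hairpin at chr1:45925467-45925491 on the minus strand. The 4 Tfrc hairpins lie on the plus strand, from chr16:32631221-32631245 to chr16:32631712-32631736. The Slc11a2 match at chr15:100395155-100395179 on the minus strand has 4 of the 5 pairs, and the others have all 5. Matches with at least 4 pairs were found in the 5′ UTRs of 176 of 20546 genes (0.857%) and in the 3′ UTRs of 858 of 20920 genes (4.1%). Matches with all 5 pairs were found in the 5′ UTRs of 28 of 20546 genes (0.136%) and in the 3′ UTRs of 127 of 20920 genes (0.607%). No match lay in the annotated UTRs of Hfe, Trf, Cp, Steap3 or Ncoa4. A match is a description of these letters and not evidence that a protein bound there.

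The 9 libraries held an estimated 22000000 to 26700000 fragments each, and 13413 to 13965 genes reached 1 FPKM. Markers of the labelled tissue varied between libraries. Th, the dopamine-synthesising enzyme, ranged over 1.64 to 15.6 FPKM with overlapping groups, and the dopamine transporter Slc6a3 was listed at 0 in MPTP + PE replicate 2 and stood at 0.0377 FPKM in MPTP replicate 2. The 12 listed dopaminergic markers, of which Aldh1a1, Drd2 and Ddc were highest, varied less in sum. They summed to 54.6, 93.7 and 85.1 FPKM in MPTP + PE and 90.8, 49.5 and 106 FPKM in MPTP libraries. In Vehicle libraries they summed to 92.4, 58.0 and 76.4 FPKM. MPTP + PE replicate 2 was therefore not low in that sum. Choroid plexus markers summed to 22.2 to 958 FPKM in MPTP + PE, 965 to 2095 FPKM in MPTP and 39.1 to 349 FPKM in Vehicle libraries. Vehicle replicate 3 stood apart in red blood cell genes, at 438 FPKM against 10.9 to 59.7 FPKM in the other 8 libraries. Hippocampus and cortex markers summed to 51.2 to 238 FPKM and thalamus markers to 65.8 to 265 FPKM over the 9 libraries, with overlapping groups. All 9 thalamus markers had negative differences from Vehicle in both MPTP and MPTP + PE. For MPTP + PE over MPTP, 5 were positive and 4 negative. None passed the adjusted limma test described below. The share of tissue from these regions in each library was not tested. In bulk tissue, fewer cells of a type and less RNA per cell cannot be told apart.

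The 10 genes spanned a wide range of levels. Fth1, the ferritin heavy chain that oxidises iron on entry, averaged 408 FPKM over the 9 libraries and ranked 46 among the tested genes. Trf, the iron carrier transferrin, averaged 145 FPKM and Ftl1, the ferritin light chain that helps form the iron core, 94.0 FPKM. Tfrc, the receptor that takes up iron-loaded transferrin, averaged 20.7 FPKM. Below it came Slc11a2 at 6.58, Ncoa4 at 3.82, Cp at 1.91, Hfe at 1.70, Slc40a1 at 1.22 and Steap3 at 0.933 FPKM.

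The ranges of neighbours in this order were separate at only 3 steps. Each Fth1 value lay above each Trf value, each Ftl1 value above each Tfrc value, and each Tfrc value above each Slc11a2 value. Trf exceeded Ftl1 in 8 of 9 libraries, Ncoa4 exceeded Cp within each of the 9 libraries although their ranges overlapped, and Cp exceeded Hfe in only 5 of 9. The ranges of all other neighbours overlapped too. The depth behind the values differed accordingly, from an estimated 28000 to 40000 fragments per library on Fth1 to 84 to 160 on Steap3.

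**Figure D1:**
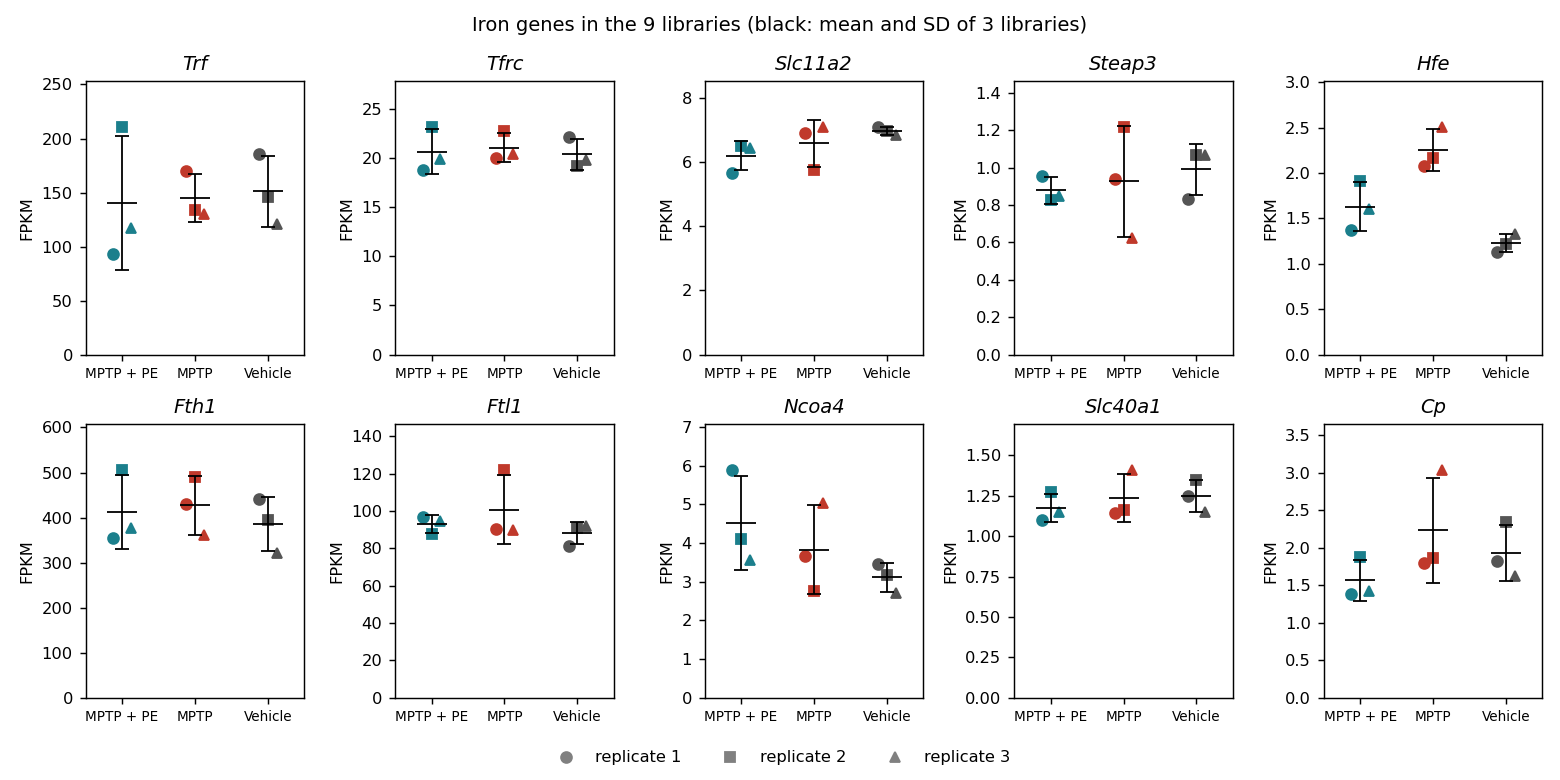
FPKM of the 10 iron genes in each library (1 point each, shape by replicate number), with MPTP + PE left of MPTP and Vehicle; black marks give the mean and SD of 3 libraries, and each panel has its own axis from 0. Hfe is the gene whose 3 groups are separate, with means of 1.63 FPKM in MPTP + PE, 2.25 FPKM in MPTP and 1.23 FPKM in Vehicle, whereas most panels show groups that overlap.

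MPTP against Vehicle compares mice given the toxin without running with saline mice. Their libraries also differed in choroid plexus markers, as given above. None of the 10 genes passed limma's test adjusted over all genes by Benjamini-Hochberg, a test that called 2 of 15997 genes (0.0125%). At an unadjusted p under 0.05 the count was 1 of 10, Hfe, where 4.09% of all genes reached it. Hfe was also the only member whose MPTP libraries all lay above the Vehicle libraries, an arrangement seen in 5.2% of all genes, and no member showed the opposite, seen in 4.23%. The difference of log2(FPKM + 1) was positive for 6 members and negative for 4, with a median of 0.09 beside -0.01 over all genes. The sign turned for Tfrc when libraries were rescaled to the same sum and for Trf with array weights.

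MPTP + PE against MPTP compares toxin-treated mice with and without wheel running. Here too the libraries differed in choroid plexus markers. No member and no other gene passed (0.0% called by limma). At an unadjusted p under 0.05 the count was again 1 of 10, Hfe, where 3.99% of all genes reached it. Hfe was the one member whose MPTP + PE libraries all lay below the MPTP libraries, an arrangement seen in 5.36% of all genes, and no member showed the opposite, seen in 2.66%. The differences were negative for 9 members and positive for Ncoa4, with a median of -0.06 beside -0.01 over all genes. The negative sign was not stable for Tfrc, Slc40a1, Steap3 and Ftl1, each of which turned positive under at least 1 rescaling or weighting of the libraries.

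MPTP + PE against Vehicle sets toxin-treated running mice beside saline mice. No member and no other gene passed (0.0% called), and 1 member, Hfe, was under an unadjusted p of 0.05, where 6.54% of all genes were. Hfe and Ncoa4 were higher in all 3 MPTP + PE libraries than in all 3 Vehicle libraries, an arrangement of 6.38% of genes. Slc11a2 was lower in all 3, an arrangement of 9.2% of genes. Of the 10 differences 5 were positive and 5 negative, with a median of -0.02, the same as over all genes. The sign turned under at least 1 rescaling for Tfrc, Ftl1 and Slc40a1. These comparisons share libraries: each of the 3 groups stands in 2 of the 3 comparisons.

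**Figure D2:**
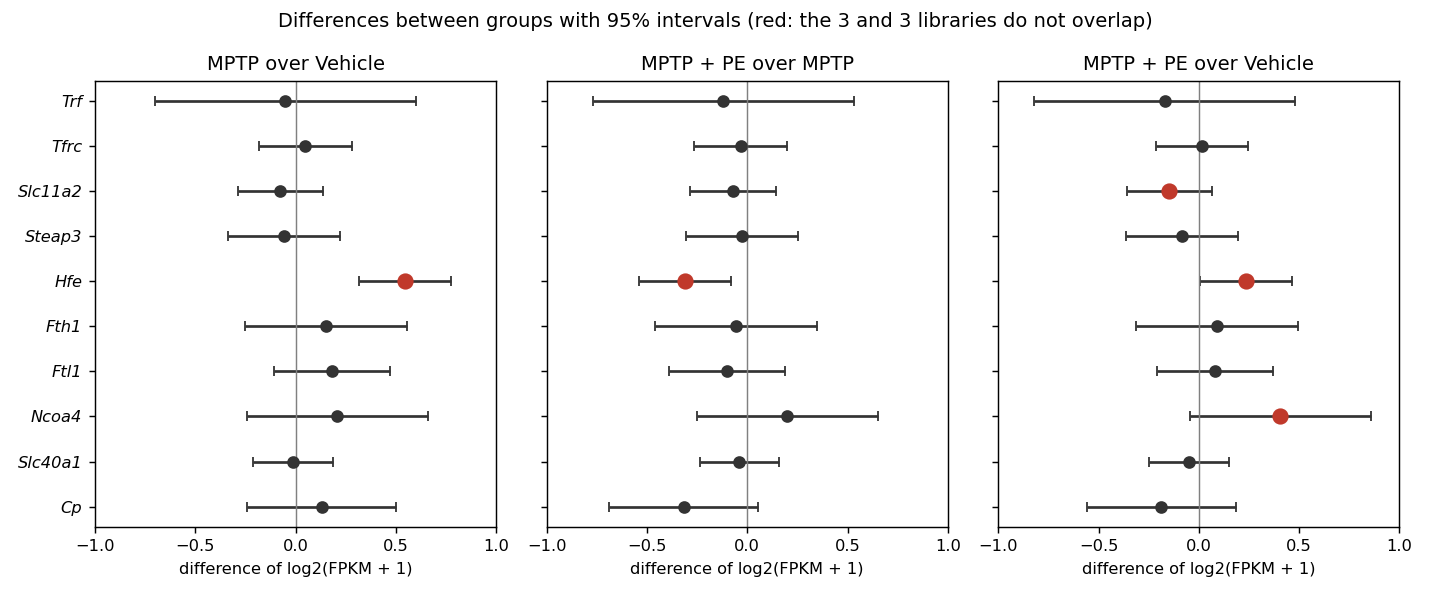
Differences of log2(FPKM + 1) with 95% intervals from the limma fit for the 10 genes in the 3 comparisons; red points mark genes whose 3 and 3 libraries do not overlap. The Hfe interval lies above 0 for MPTP over Vehicle (0.31 to 0.78), while the intervals of the other 9 genes cross 0 in all 3 comparisons.

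Hfe encodes a relative of MHC class I proteins that binds the transferrin receptor and takes part in iron sensing; its loss causes hereditary haemochromatosis in humans. Its level was 1.37, 1.91 and 1.60 FPKM in MPTP + PE libraries, 2.08, 2.16 and 2.51 FPKM in MPTP libraries, and 1.13, 1.22 and 1.33 FPKM in Vehicle libraries. No value of one group lay inside the range of another, with MPTP highest, MPTP + PE between and Vehicle lowest.

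The mean Hfe level of 2.25 ± 0.227 FPKM in MPTP libraries was 1.83 times the 1.23 ± 0.0992 FPKM in Vehicle libraries (SD, n = 3 each). On the log2(FPKM + 1) scale, which understates changes of low genes, the difference was 0.54 (SE 0.10, limma adjusted p = 0.455). By limma's p before adjustment Hfe stood at rank 18 of all genes. An exact two-sided permutation test gave 0.1, the smallest value that 3 against 3 libraries allow, so it could not pass. Between MPTP + PE, at 1.63 ± 0.269 FPKM, and MPTP the difference was -0.31 (SE 0.10, limma adjusted p = 1.0). Between MPTP + PE and Vehicle it was 0.23 (SE 0.10, limma adjusted p = 0.753). Hfe rested on an estimated 120 to 150 fragments per MPTP + PE library, 180 to 210 per MPTP library and 89 to 120 per Vehicle library.

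The summed level of antigen presentation genes, whose class I members are relatives of Hfe by sequence, was ordered in a similar way. Their 16 listed genes summed to 154, 161 and 134 FPKM in MPTP + PE, 190, 292 and 259 FPKM in MPTP, and 112, 125 and 96.3 FPKM in Vehicle libraries. For MPTP over Vehicle all 14 tested genes of the list had positive differences. Of these 13 were at an unadjusted p under 0.05, where 2.61% of all genes were higher, and 1, H2-K1, passed the adjusted test. That call was lost, with no gene passing, when only the 2 groups were fitted or when any 1 MPTP + PE library, MPTP replicate 2 or MPTP replicate 3 was left out. H2-K1, a class I heavy chain, was at 6.41, 7.20 and 6.88 FPKM in MPTP + PE, 12.1, 17.2 and 14.9 FPKM in MPTP and 5.13, 5.73 and 5.77 FPKM in Vehicle libraries. For MPTP + PE over MPTP all 14 were negative with none called. Of these 11 were under an unadjusted p of 0.05, where 2.89% of all genes were lower. For MPTP + PE over Vehicle 11 of the 14 were positive and 3 negative, with a median of 0.06 and none called. At an unadjusted p under 0.05, 2 were higher, where 3.12% of all genes were. Most single genes of the list thus did not separate MPTP + PE from Vehicle as the sum did. Interferon response genes were ordered likewise, with 20 genes summing to 80.2 to 87.7 FPKM in MPTP + PE, 90.2 to 228 FPKM in MPTP and 57.2 to 60.6 FPKM in Vehicle libraries. For MPTP over Vehicle all 20 were positive and none called, with 17 at an unadjusted p under 0.05, where 2.61% of all genes were higher. The choroid plexus sum, given above and mostly Ttr, was also higher in each MPTP library than in any other. The margin was small, at 965 FPKM in MPTP replicate 2 against 958 FPKM in MPTP + PE replicate 1. Not every marker followed: Kl was at 3.92 FPKM in MPTP replicate 2 and 4.26 FPKM in MPTP + PE replicate 3. Macrophage and monocyte markers summed to 3.03 to 4.03 FPKM in MPTP + PE, 5.32 to 6.41 FPKM in MPTP and 4.31 to 5.01 FPKM in Vehicle libraries. Microglial markers summed to 172 to 209 FPKM in MPTP + PE, 187 to 253 FPKM in MPTP and 164 to 205 FPKM in Vehicle libraries, ranges that overlap. The part of these lists in the Hfe difference was not tested.

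Tfrc, the receptor itself, varied least of the 10 genes in proportion, with a ratio of 1.23 between its highest and lowest library. It was at 18.8, 23.2 and 19.9 FPKM in MPTP + PE, 20.0, 22.8 and 20.4 FPKM in MPTP, and 22.1, 19.2 and 19.8 FPKM in Vehicle libraries. The 3 groups overlapped throughout, and the sign of each of the 3 differences depended on how libraries were scaled. The MPTP over Vehicle difference was 0.05 (95% interval -0.18 to 0.28, limma adjusted p = 0.993), and the 2 others were -0.03 and 0.02. Tfrc carries its hairpins in the 3′ UTR, printed above, so its messenger RNA level is the readout among these genes on which iron regulatory proteins are known to act most.

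Because both genes were measured in each library, the ratio of Hfe to Tfrc does not depend on library scaling. The FPKM ratio was 0.0732, 0.0825 and 0.0803 in MPTP + PE, 0.104, 0.0950 and 0.123 in MPTP, and 0.0512, 0.0638 and 0.0671 in Vehicle libraries. The groups did not overlap in any of the 3 comparisons. Since Tfrc varied little, this separation largely repeats that of Hfe itself and is not a further result. The log2 difference was 0.82 for MPTP over Vehicle, -0.44 for MPTP + PE over MPTP and 0.38 for MPTP + PE over Vehicle, each with an exact permutation p of 0.1, or 0.5 after adjustment over 15 ratio tests.

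Trf was the most uneven of the abundant members. It stood at 93.1, 211 and 117 FPKM in MPTP + PE, 170, 134 and 130 FPKM in MPTP, and 186, 146 and 121 FPKM in Vehicle libraries. The lowest and the highest value of all 9 were both in the MPTP + PE group, and the groups overlapped. Differences were -0.05 for MPTP over Vehicle, -0.12 for MPTP + PE over MPTP and -0.17 for MPTP + PE over Vehicle (SE 0.29 each, limma adjusted p of 0.995, 1.0 and 0.908). The interval for MPTP over Vehicle reached from -0.70 to 0.60, so a sizeable change either way was not detectable with these libraries.

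The 16 markers of oligodendrocytes, which make much of the brain's transferrin messenger RNA, varied between libraries in the same places. They summed to 1417, 2463 and 1567 FPKM in MPTP + PE, 2117, 1692 and 1425 FPKM in MPTP, and 2374, 1683 and 1517 FPKM in Vehicle libraries. MPTP + PE replicate 2, MPTP replicate 1 and Vehicle replicate 1 were the highest in both Trf and this sum. None of the 16 had an unadjusted p under 0.05 in any comparison. Their part in the spread of Trf was not tested. Trf also shares 2108 of its 3320 exonic bases with Gm20425, a GENCODE M21 gene on the same strand. No gene of that symbol was found among the deposited values. Whether the overlap touched the Trf level was not tested.

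**Figure D3:**
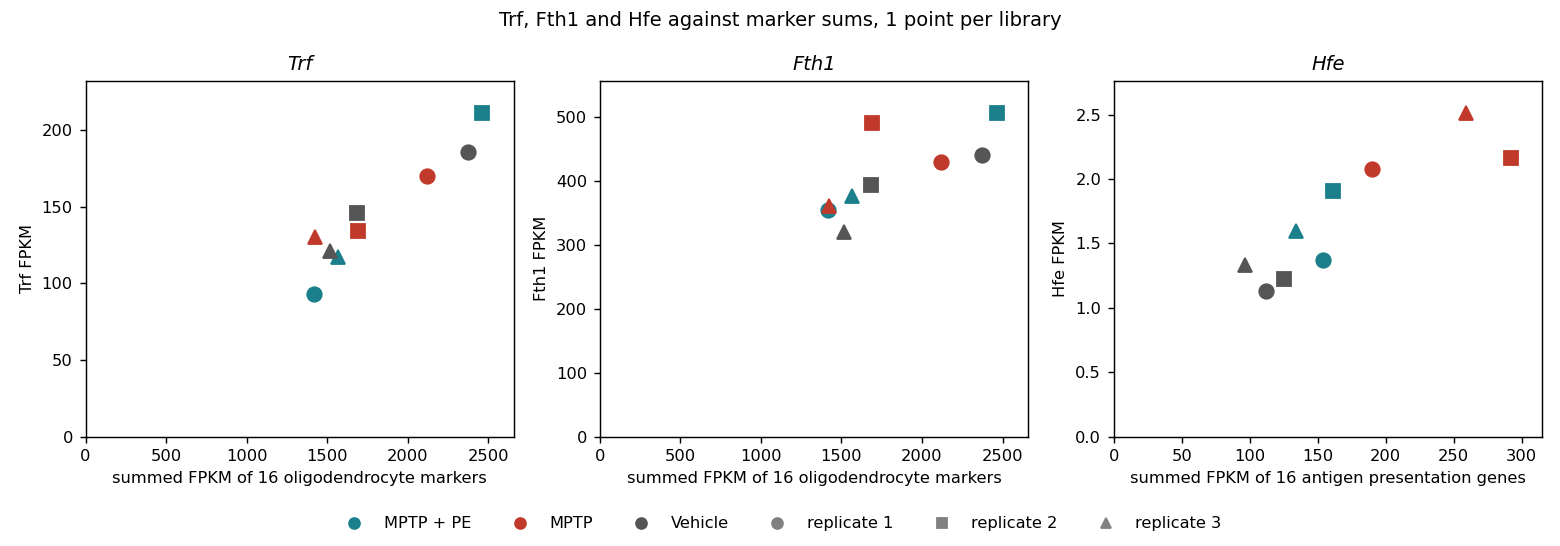
Trf and Fth1 against the summed FPKM of 16 oligodendrocyte markers, and Hfe against that of 16 antigen presentation genes, 1 point per library, coloured by group with MPTP + PE named first. MPTP + PE replicate 2, at 2463 FPKM of oligodendrocyte markers, has the highest Trf and Fth1 of the 9 libraries, and the 3 MPTP libraries lie highest on both axes of the Hfe panel.

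Slc11a2 (DMT1) pumps ferrous iron out of the endosome into the cytosol. It was at 5.67, 6.49 and 6.43 FPKM in MPTP + PE, 6.90, 5.74 and 7.10 FPKM in MPTP, and 7.10, 6.96 and 6.84 FPKM in Vehicle libraries. All MPTP + PE values lay below all Vehicle values, with a difference of -0.15 (SE 0.09, limma adjusted p = 0.77; -0.18 to -0.09 with 1 library left out), while MPTP overlapped both. The other differences were -0.08 for MPTP over Vehicle and -0.07 for MPTP + PE over MPTP, the second ranging over -0.15 to -0.02 with 1 library left out. Only some Slc11a2 transcripts carry the 3′ hairpin, and the gene-level value does not separate them.

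Steap3, the reductase that makes ferrous iron for Slc11a2 in the endosome of red cell precursors, was the lowest member. It was at 0.958, 0.827 and 0.850 FPKM in MPTP + PE, 0.939, 1.22 and 0.623 FPKM in MPTP, and 0.835, 1.07 and 1.07 FPKM in Vehicle libraries. MPTP held both the highest and the lowest value, and the differences were -0.06, -0.03 and -0.08 for MPTP over Vehicle, MPTP + PE over MPTP and MPTP + PE over Vehicle.

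The ferritin chains carried most of the iron gene signal. Fth1 was at 355, 506 and 376 FPKM in MPTP + PE, 430, 491 and 361 FPKM in MPTP, and 441, 394 and 321 FPKM in Vehicle libraries. The means were 412 ± 81.6 FPKM in MPTP + PE, 427 ± 65.2 FPKM in MPTP and 385 ± 60.9 FPKM in Vehicle libraries (SD, n = 3 each), and the groups overlapped. The MPTP over Vehicle difference was 0.15 (95% interval -0.25 to 0.55, limma adjusted p = 0.991; 0.02 to 0.27 with 1 library left out), and MPTP + PE differed from MPTP by -0.06 and from Vehicle by 0.09. Fth1 was highest in MPTP + PE replicate 2, the library with the most oligodendrocyte signal, and next in MPTP replicate 2, at 491 FPKM beside a marker sum of 1692 FPKM. Astrocyte markers summed to 777, 1033 and 799 FPKM in MPTP + PE and 876, 914 and 733 FPKM in MPTP libraries. In Vehicle libraries they summed to 790, 805 and 782 FPKM. That sum was also highest in MPTP + PE replicate 2 and next in MPTP replicate 2. The part of either cell type in the spread of Fth1 was not tested.

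Ftl1 was at 96.9, 87.8 and 94.6 FPKM in MPTP + PE, 90.4, 122 and 89.8 FPKM in MPTP, and 81.3, 90.8 and 92.2 FPKM in Vehicle libraries. Apart from MPTP replicate 2 the values of all libraries lay within 81.3 to 96.9 FPKM. The differences were 0.18 for MPTP over Vehicle, -0.10 for MPTP + PE over MPTP and 0.08 for MPTP + PE over Vehicle (SE 0.13 each; limma adjusted p of 0.991, 1.0 and 0.903). Without MPTP replicate 2 the difference for MPTP over Vehicle was 0.03.

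Ferritin is a shell of both chains, and their ratio differs between tissues. The FPKM ratio of Fth1 to Ftl1 averaged 4.47 ± 1.13 in MPTP + PE, 4.26 ± 0.429 in MPTP and 4.41 ± 0.978 in Vehicle libraries (SD, n = 3 each). Single libraries ran from 3.67 to 5.76 in MPTP + PE, 4.01 to 4.76 in MPTP and 3.48 to 5.43 in Vehicle. An exact permutation test gave p = 1.0 in all 3 comparisons, with log2 differences of -0.03 for MPTP over Vehicle, 0.04 for MPTP + PE over MPTP and 0.01 for MPTP + PE over Vehicle. Both ferritin genes have processed copies. Ftl2-ps averaged 4.24 FPKM, Ftl1-ps1 3.32 FPKM and Fth-ps2 0.253 FPKM, while the miRNA gene Gm22133, which lies inside Ftl1 on the same strand, was given 197 FPKM. How the authors assigned fragments that match several of these is not given in the sources used here, so the ferritin levels carry that uncertainty.

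Ncoa4 is the receptor that delivers ferritin to lysosomes so that its iron is freed. It was at 5.89, 4.11 and 3.57 FPKM in MPTP + PE, 3.67, 2.77 and 5.04 FPKM in MPTP, and 3.45, 3.17 and 2.72 FPKM in Vehicle libraries. All MPTP + PE values lay above all Vehicle values, with a difference of 0.41 (SE 0.20, limma adjusted p = 0.753). MPTP overlapped both groups, with differences of 0.21 for MPTP over Vehicle and 0.20 for MPTP + PE over MPTP. With 1 library left out these ranged over 0.03 to 0.37 and 0.03 to 0.37. Without MPTP + PE replicate 1, the highest library, the MPTP + PE over Vehicle difference was 0.24.

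Export runs through ferroportin, encoded by Slc40a1, with the ferroxidase ceruloplasmin, encoded by Cp, oxidising the iron as it leaves. Slc40a1 was at 1.1, 1.27 and 1.15 FPKM in MPTP + PE, 1.14, 1.16 and 1.41 FPKM in MPTP, and 1.25, 1.35 and 1.15 FPKM in Vehicle libraries. The groups overlapped, and the differences were -0.01 for MPTP over Vehicle, -0.04 for MPTP + PE over MPTP and -0.05 for MPTP + PE over Vehicle. The 95% interval for MPTP over Vehicle, -0.21 to 0.19, was the narrowest of the 10 members on the log2(FPKM + 1) scale. That scale understates both changes and spread of low genes such as Slc40a1. The narrow interval therefore does not show that Slc40a1 was measured more precisely than the more abundant members.

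Cp was at 1.39, 1.88 and 1.43 FPKM in MPTP + PE, 1.80, 1.86 and 3.04 FPKM in MPTP, and 1.83, 2.34 and 1.62 FPKM in Vehicle libraries. The value in MPTP replicate 3 stood above all others. The difference was 0.13 for MPTP over Vehicle and -0.32 for MPTP + PE over MPTP (SE 0.16 each; limma adjusted p of 0.991 and 1.0). Without MPTP replicate 3 these were -0.04 and -0.15, so the first changed sign. The choroid plexus and endothelial marker sums were highest in that library too, at 2095 and 118 FPKM. In Vehicle replicate 2, next highest in Cp, these sums were 48.7 and 101 FPKM. In MPTP + PE replicate 1, lowest in Cp, they were 958 and 85.7 FPKM. The part of either cell type in the Cp values was not tested. Cp shares 108 exonic bases with Hps3 on the opposite strand.

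The 3 remaining ratios also overlapped between all groups. Tfrc over Fth1, which sets uptake against storage, averaged 0.0506 in MPTP + PE, 0.0499 in MPTP and 0.0535 in Vehicle libraries. Slc40a1 over Tfrc, export against uptake, averaged 0.0571 in MPTP + PE, 0.0590 in MPTP and 0.0618 in Vehicle libraries. Trf over Tfrc averaged 6.65 in MPTP + PE, 6.91 in MPTP and 7.39 in Vehicle libraries, and single libraries spread from 4.96 to 9.12.

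The wider iron network was read from 4 lists: 19 regulators, 25 transport genes, 24 genes of heme handling and 28 genes of mitochondrial iron and iron-sulfur assembly. Of these 15, 15, 21 and 28 were tested, and none passed the limma test adjusted over all genes in any comparison. At an unadjusted p under 0.05, MPTP over Vehicle had 0 higher and 1 lower regulator, 1 higher and 0 lower transport genes, 2 higher and 0 lower heme genes and no mitochondrial gene, where 2.61% of all genes were higher and 1.48% lower. MPTP + PE over MPTP had 1 lower regulator, 2 higher and 1 lower transport genes, 3 lower heme genes and no mitochondrial gene, where 1.11% of all genes were higher and 2.89% lower. MPTP + PE over Vehicle had 2 lower regulators, 1 higher and 1 lower transport gene, no heme gene and 1 lower mitochondrial gene, where 3.12% of all genes were higher and 3.43% lower. The list medians stayed within -0.08 to 0.09 on the log2 scale, beside -0.01, -0.01 and -0.02 over all genes.

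The messenger RNA of the sensors of cell iron overlapped between all groups, and their protein was not measured. Ireb2 and Aco1 encode the proteins that bind the hairpins, and Fbxl5 encodes the ubiquitin ligase subunit that removes Ireb2 protein when iron is high. Ireb2 averaged 7.09 FPKM in MPTP + PE, 7.08 FPKM in MPTP and 7.38 FPKM in Vehicle libraries. Aco1 averaged 7.36 FPKM in MPTP + PE, 7.46 FPKM in MPTP and 7.69 FPKM in Vehicle libraries. Fbxl5 averaged 8.24 FPKM in MPTP + PE, 8.28 FPKM in MPTP and 8.07 FPKM in Vehicle libraries. Their largest difference in size over the 3 comparisons was -0.06, for Aco1 in MPTP + PE over Vehicle. Hamp, the hormone hepcidin that removes ferroportin, was listed at 0 in 7 of 9 libraries and at most at 0.374 FPKM, in Vehicle replicate 2. Tfr2, a second transferrin receptor that acts in iron sensing, was at 0.551 to 0.950 FPKM.

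Bmp6, the signal that induces hepcidin in liver, had the smallest p among the regulators for MPTP + PE over MPTP. It was at 1.92, 1.55 and 2.0 FPKM in MPTP + PE, 2.92, 2.95 and 3.93 FPKM in MPTP, and 2.20, 2.70 and 2.84 FPKM in Vehicle libraries. All MPTP + PE values were below all values of both other groups. The difference was -0.59 from MPTP (SE 0.12, limma adjusted p = 0.857) and -0.34 from Vehicle (SE 0.12, adjusted p = 0.753), and neither passed. Endothelial markers, a cell type known to make Bmp6 in liver, summed to 85.7, 103 and 86.4 FPKM in MPTP + PE, 108, 113 and 118 FPKM in MPTP, and 103, 101 and 99.7 FPKM in Vehicle libraries. For MPTP + PE over MPTP all 12 were negative and none called. Of these 8 were at an unadjusted p under 0.05, where 2.89% of all genes were lower. Against Vehicle 10 of the 12 were negative in MPTP + PE and none called. Of these 6 were at an unadjusted p under 0.05, where 3.43% of all genes were lower. Their part in the differences of Bmp6, of Epas1 and of the barrier gene Flvcr2 was not tested. Smad4, the shared transducer of that signal, was at 7.22, 6.58 and 7.97 FPKM in MPTP and 8.84, 8.61 and 8.66 FPKM in Vehicle libraries, with a difference of -0.24 (limma adjusted p = 0.991). Epas1, a hypoxia-inducible factor, differed by -0.30 in MPTP + PE over Vehicle (limma adjusted p = 0.753).

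Among transport genes, Steap1, a metalloreductase relative of Steap3, had the largest difference for MPTP over Vehicle, at 1.33 (SE 0.40, limma adjusted p = 0.953). It was at 1.53, 0.0532 and 0.935 FPKM in MPTP + PE, 2.67, 1.44 and 3.15 FPKM in MPTP, and 0, 0.0392 and 1.23 FPKM in Vehicle libraries. Ttr, the main choroid plexus product, was at 924, 18.5 and 770 FPKM in MPTP + PE, 1676, 929 and 2011 FPKM in MPTP, and 32.0, 41.9 and 328 FPKM in Vehicle libraries. Both genes were lowest in MPTP + PE replicate 2 and in Vehicle replicates 1 and 2. All 11 tested choroid plexus markers had positive MPTP over Vehicle differences, and none was called. Of these 10 were under an unadjusted p of 0.05, where 2.61% of all genes were higher. The part of choroid plexus RNA in the Steap1 difference was not tested. Vps35, a retromer subunit that recycles endosomal cargo, was at 22.3, 20.8 and 21.4 FPKM in MPTP + PE, 18.0, 19.1 and 18.2 FPKM in MPTP and 19.4, 18.0 and 17.4 FPKM in Vehicle libraries. Its differences were 0.21 from MPTP (limma adjusted p = 1.0) and 0.22 from Vehicle (limma adjusted p = 0.753).

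Exoc6, an exocyst subunit needed for transferrin cycling in mouse red cell precursors, differed by -0.21 for MPTP over Vehicle and by 0.32 for MPTP + PE over MPTP, where the 3 and 3 libraries did not overlap in either comparison. Mcoln1, a lysosomal cation channel that can release iron, differed by -0.19 for MPTP + PE over Vehicle. The ferroxidase Heph ranged over 1.1 to 2.82 FPKM and the ferric reductase Cybrd1 over 0.428 to 0.812 FPKM, with overlapping groups in all 3 comparisons.

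In heme handling, Flvcr2, a transporter of the blood-brain barrier first linked to heme, was at 0.763, 0.720 and 0.849 FPKM in MPTP + PE, 1.2, 1.09 and 1.34 FPKM in MPTP, and 0.804, 0.913 and 0.929 FPKM in Vehicle libraries. The MPTP libraries stood above both other groups, with differences of 0.23 for MPTP over Vehicle (limma adjusted p = 0.991) and -0.31 for MPTP + PE over MPTP (limma adjusted p = 1.0). Alad, an early enzyme of heme synthesis, was likewise highest in MPTP, at 7.24 ± 0.783 FPKM, against 6.05 ± 0.163 FPKM in MPTP + PE and 5.86 ± 0.479 FPKM in Vehicle libraries (SD, n = 3 each). Blvrb, a biliverdin reductase, differed by 0.20 for MPTP + PE over Vehicle. Alas2, the red cell form of the first heme enzyme, was at 2.52 FPKM in Vehicle replicate 3, the library with the red blood cell genes, and at 0.0983 to 0.420 FPKM elsewhere. Hmox1, which breaks heme down and frees its iron, was at 2.24 to 3.58 FPKM in MPTP + PE, 2.40 to 3.21 FPKM in MPTP and 2.33 to 2.70 FPKM in Vehicle libraries.

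Mitochondria use much of the cell's iron. Slc25a37 (mitoferrin), their iron importer, was at 4.52, 4.57 and 3.85 FPKM in MPTP + PE, 4.71, 4.53 and 5.54 FPKM in MPTP, and 6.19, 5.03 and 6.17 FPKM in Vehicle libraries. All MPTP + PE values lay below all Vehicle values, with a difference of -0.35 (SE 0.11, limma adjusted p = 0.753). The gene is strong in red cell precursors. Red blood cell genes summed to 14.4, 10.9 and 45.5 FPKM in MPTP + PE and 51.0, 59.7 and 438 FPKM in Vehicle libraries. Of the 5 tested, 4 were lower at an unadjusted p under 0.05, where 3.43% of all genes were lower, and none was called. Their part in the Slc25a37 difference was not tested. Isca1, a factor of iron-sulfur cluster assembly, was at 5.80, 6.66 and 12.1 FPKM in MPTP + PE, 6.47, 6.28 and 6.38 FPKM in MPTP, and 12.6, 6.18 and 11.5 FPKM in Vehicle libraries. Its libraries split into a low and a high level within both MPTP + PE and Vehicle. Glrx5, which carries clusters on to their targets, differed by 0.26 for MPTP + PE over Vehicle, and the transporter Abcb8 by -0.15 for MPTP + PE over MPTP.

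**Figure D4:**
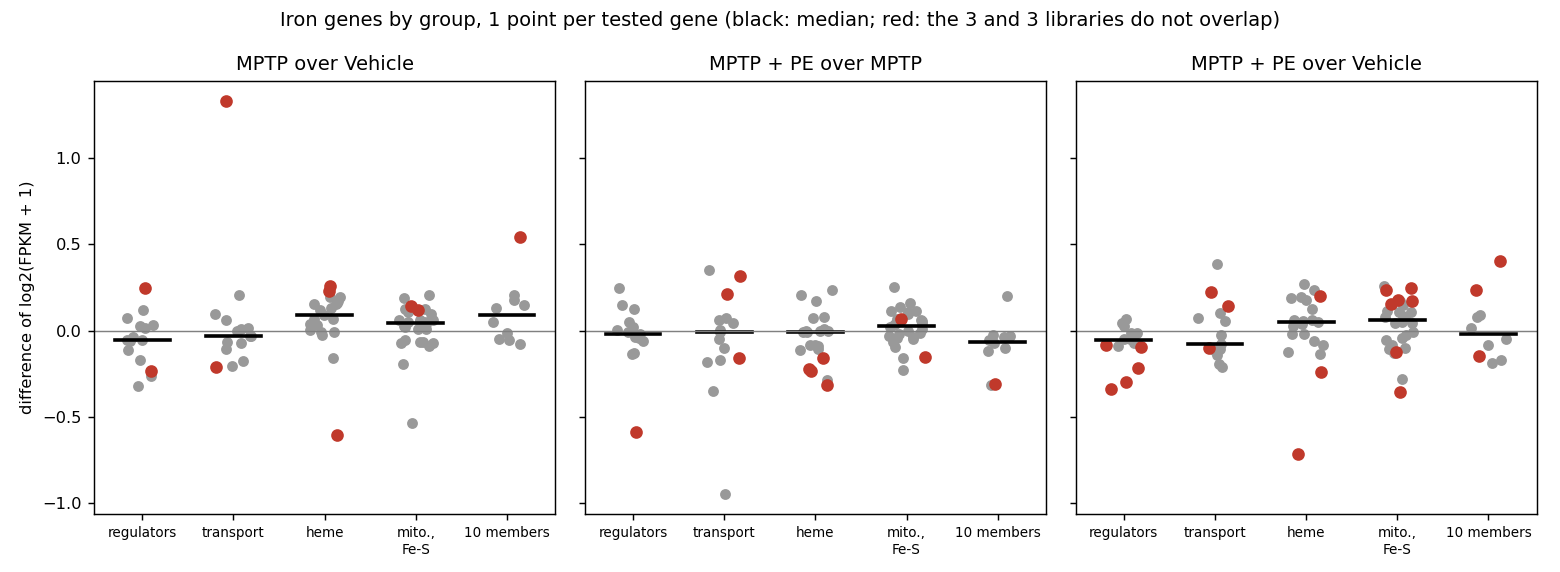
Differences of log2(FPKM + 1) of each tested gene in the 4 iron lists and the 10 members, in the 3 comparisons; black bars are list medians and red points are genes whose 3 and 3 libraries do not overlap. The medians lie near 0 in every list (-0.08 to 0.09). The points farthest out include Steap1 (1.33 for MPTP over Vehicle, -0.95 for MPTP + PE over MPTP) and Alas2 (-0.72 for MPTP + PE over Vehicle). Bmp6 (-0.59 for MPTP + PE over MPTP) lies less far out.

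The genes that followed each member most closely over the 9 libraries were ranked among 12171 genes by Pearson's r of log2(FPKM + 1), given as a description since all points share the same libraries. For Hfe they were Pecr (0.944), Serf2 (0.939) and Tmem179b (0.934), and for Tfrc Ndufv1 (0.932), Flad1 (0.927) and Mvk (0.919). For Trf they were Maged2 (0.989), Chga (0.989) and Tmem63a (0.983), and for Slc11a2 Ube4b (0.984), Abca3 (0.980) and Rtl1 (0.976). Fth1 went with Aldoc (0.984), an astrocyte marker of the lists used here, and with Psmc5 (0.972) and Cend1 (0.963). Ftl1 went with Actr1b (0.957), Otulin (0.955) and Bri3 (0.951). Slc40a1 went with D3Ertd254e (0.934), Hps6 (0.932) and Cp (0.909), the other export member, and Cp with Clec14a (0.955), Hps6 (0.955) and Nos3 (0.921). Steap3 went with Prr16 (0.974), Ngef (0.943) and Mir8094 (0.937), and Ncoa4 with Snora68 (0.930), Zfp467 (0.920) and Pakap (0.900).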

How the data were processed

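The values are FPKM as deposited by the authors, for 9 libraries and 55335 genes. The labels' protocols state mRNA enrichment, and the submitters' processing notes name bcl2fastq, HTSeq, DESeq2 and the build GRCm38, without versions. No source used here gives the aligner, the FPKM tool or the strandedness. Symbols and exons came from GENCODE M21 (GRCm38), and 181 genes had no symbol. Genes averaging at least 0.5 FPKM (15997) were tested on log2(FPKM + 1) with limma and its mean-variance trend, all 9 libraries in 1 fit with 3 contrasts, two-sided, Benjamini-Hochberg over all genes, threshold 0.05; the fit was checked on simulated data. Ratios used exact permutation tests over 20 splits. Fragments were estimated from steps between low FPKM values; only 40.9% to 43.8% lay within 2% of a whole step, so these depths are approximate and no count test was run.

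The labels give the replicate numbers no meaning. Same-numbered MPTP and Vehicle libraries gave correlations of 0.251, 0.33 and 0.105 between their deviations from the group means. MPTP + PE with MPTP gave -0.339, -0.134 and 0.247, and MPTP + PE with Vehicle -0.265, 0.00692 and 0.241. Differently numbered libraries gave -0.35 to 0.165, -0.231 to 0.4 and -0.388 to 0.349 in the same order, so the number does not mark a clear pairing. The MPTP over Vehicle result was also fitted with that number as a block.

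The members, gene lists and naming rule were chosen with earlier results of these data known. All 10 members are named. From each other iron list the 2 genes with the smallest p per comparison are named, with Ireb2, Aco1, Fbxl5, Hamp, Tfr2, Heph, Cybrd1, Hmox1 and Slc25a37 for their roles; 1 further gene is not reported here. Alternatives changed the pseudocount, filter, scaling, trend, weights, block and libraries. Software was R 4.3.3, limma 3.58.1, Python 3.11.15, pandas 2.3.3, numpy 2.4.6, scipy 1.17.1 and matplotlib 3.10.9.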

Additional observations from a re-analysis of the deposited data

How the results depend on the processing

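Over 615 values of the 10 genes under 21 settings, none passed the threshold, 576 kept their direction and 39 changed it. All were on the log2(FPKM + 1) scale except those that added 0.1 or 0.5 in place of 1. The largest difference among those 39 was that of Trf for MPTP + PE over Vehicle, -0.17 and then 0.0807 without MPTP + PE replicate 1. Hfe kept its direction in all 20 settings that could test it (0.49 to 0.82 for MPTP over Vehicle, limma adjusted p 0.238 to 0.982). The value of 0.82 came from adding 0.1 in place of 1, a different scale. The filter at a mean of 5 FPKM removed Hfe. All FPKM of a library summed to 331121 to 344049 in MPTP + PE, 326614 to 347524 in MPTP and 318416 to 319431 in Vehicle libraries. At equal sums the MPTP over Vehicle difference of Fth1 was 0.07 in place of 0.15. That of Ftl1 was 0.10 in place of 0.18. With libraries rescaled to the same sum, Tfrc was -0.0258 for MPTP over Vehicle and -0.0651 for MPTP + PE over Vehicle, and Ftl1 -0.0052 for MPTP + PE over Vehicle; outside the mitochondrial genome Tfrc was -0.0122 and -0.0528. With the median ratio Tfrc was 0.0019 for MPTP + PE over MPTP. After quantile normalization Slc40a1 was 0.0095 and Steap3 0.0245 for MPTP + PE over MPTP, and Tfrc -0.013, Slc40a1 0.0026 and Ftl1 -0.0182 for MPTP + PE over Vehicle. Array weights gave Trf 0.0595 for MPTP over Vehicle, and Ftl1 0.0053 and Steap3 0.0133 for MPTP + PE over MPTP.

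Leaving out 1 library at a time gave these ranges. For MPTP over Vehicle they were -0.0067 to 0.105 for Tfrc, -0.20 to 0.11 for Trf, -0.0668 to 0.0204 for Slc40a1, -0.127 to 0.0066 for Slc11a2, -0.0407 to 0.229 for Cp and -0.165 to 0.0606 for Steap3. For MPTP + PE over MPTP they were -0.115 to 0.0296 for Tfrc, -0.455 to 0.132 for Trf, -0.071 to 0.0164 for Slc40a1, -0.213 to 0.0487 for Fth1, -0.176 to 0.0458 for Ftl1 and -0.144 to 0.0821 for Steap3. For MPTP + PE over Vehicle they were -0.0667 to 0.078 for Tfrc, -0.506 to 0.0807 for Trf and -0.0636 to 0.196 for Fth1. The causes were not tested.

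The count over all genes was less stable. For MPTP over Vehicle it was 2, ranged over 0 to 32 with 1 library left out (32 without MPTP replicate 1, 4 without Vehicle replicate 1, 3 without Vehicle replicate 2, 1 without Vehicle replicate 3 and 0 without any other), was 0 with only the 2 groups compared, and was 3 with no filter. For MPTP + PE over MPTP it was 0, and 0 to 25 with 1 library left out (25 without MPTP replicate 1, 2 without MPTP replicate 2, and 1 without MPTP replicate 3 or MPTP + PE replicate 1 or 2); it was 3 with no filter and 1 each at a mean of 5 FPKM, with the same sum and with array weights. For MPTP + PE over Vehicle it was 0, and 0 to 2 with 1 library left out (2 without Vehicle replicate 1 or 2, and 1 without MPTP + PE replicate 1 or 2). With the replicate number as a block, the counts were 3, 0 and 0, Hfe in MPTP over Vehicle had an adjusted p of 0.319, and the block changed no member's call. The ratio of Hfe to Tfrc kept its direction with 1 library left out (0.706 to 0.907 for MPTP over Vehicle). The other ratio differences, all uncalled, moved by less than the SD between replicates but most turned sign, as Fth1 over Ftl1 for MPTP over Vehicle (-0.192 to 0.13) and Trf over Tfrc for MPTP + PE over MPTP (-0.338 to 0.102).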
